A study of Mus musculus with 6 samples.

Results

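The genes described here are the secreted Wnt ligands, their frizzled receptors and the secreted proteins that bind Wnts or their co-receptor, in single cells of the mouse uterine tube (oviduct). All genes in the deposited matrices whose symbol is that of a Wnt, frizzled (Fzd), secreted frizzled-related protein (Sfrp or Frzb), dickkopf (Dkk) or Wnt inhibitory factor gene were taken, which gave 39 of the 50559 genes listed: 19 ligands, 10 frizzleds and 10 secreted modulators. The choice used symbols only and no measured value. Tubes of adult C57BL6 females in estrus, with no transgene or treatment, were divided into a distal section, toward the ovary, and a proximal section, toward the uterus. There were 3 distal libraries (titled 1, 2 and 3) and 3 proximal libraries (titled 2, 3 and 4), each made from the combined tissue of a group of mice, so a library and not a mouse or a cell is the replicate. The number of mice behind a library was not analysed here.

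Wnt proteins are lipid-modified secreted signals that act mostly on nearby cells. They bind frizzleds at the cell surface, together with Lrp5 or Lrp6 to stabilise beta-catenin, or with receptors such as Ror2 to control cell polarity and movement without it. Sfrp proteins and Wif1 bind Wnts outside the cell, and most dickkopfs block Lrp5 and Lrp6. In the female tract Wnt7a is known from mouse knockouts for keeping the oviduct and uterus distinct along the duct, and Wnt4 and Wnt5a for its growth and patterning.

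The libraries held 20731 barcodes and 91560090 unique molecular identifiers (UMIs, 1 per captured transcript), of which 18466 cells were kept. The distal libraries gave 6652, 4115 and 5417 cells and the proximal ones 824, 325 and 1133. The median barcode held 2895.5 to 4580.5 UMIs in distal libraries and 733 to 3666 in proximal ones, and 211 barcode sequences occurred in more than 1 library. Cells were grouped into classes by marker genes, so that each class name means cells like that type, and clustered with the 39 genes left out. Clusters are written E (epithelium) and C (all other cells). Levels are CPM, the UMIs of a gene summed over a class or cluster in a library and scaled to a common total. These are tags of transcript ends and do not grow with transcript length. Non-ciliated epithelium numbered 1798, 879 and 1207 cells in distal and 286, 90 and 144 in proximal libraries. Fibroblasts numbered 2313, 2348 and 2253 against 377, 131 and 609. Ciliated cells numbered 623, 404 and 955 against 23, 7 and 32, so proximal 3 was left out there. Smooth muscle numbered 1119, 147 and 382 cells against 0, 3 and 8, so muscle was described in distal libraries only. No marker of a class was at 0 in its own class. The 9 epithelial markers summed to 5752 to 7431 CPM in distal and 5293 to 6701 CPM in proximal non-ciliated epithelium. The 8 fibroblast markers summed to 19260 to 20600 CPM in distal and 24040 to 28390 CPM in proximal fibroblasts. The 10 ciliated markers summed to 13740 to 16010 CPM in distal libraries and to 9719 and 4746 CPM in proximal 2 and 4.

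The proximal libraries were not alike in their epithelium. Cluster E12 (leading genes Penk and Serpina1e) held 92.2% of the non-ciliated epithelial cells of proximal 3 and 54.2% of those of proximal 4, but 0.35% of those of proximal 2. In proximal 2, cluster E13 held 30.1% and was empty in proximal 3 and 4. E12 and E13 held 6 and 3 distal cells. Clusters E3, E4 and E5 held 22.6%, 19.3% and 7.39% of the distal non-ciliated epithelial cells, pooled over libraries. They held 0.192%, 3.46% and 3.08% of the proximal ones. Among fibroblasts, cluster C3 (Col7a1, Etv1) held 18% of distal and 0.269% of proximal cells, and cluster C6 (Apod, Sgcz) 0.347% of distal and 24.3% of proximal cells. Region differences within a class are therefore given together with the clusters that hold the UMIs.

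Wnt7a and Wnt11 were the ligands that differed between the sections in non-ciliated epithelium, and Sfrp2 was the modulator that differed in fibroblasts, so the bases before their starts are shown for reference. They are RefSeq windows of 250 bases upstream of the start on the GRCm38.p6 build, printed 5′ to 3′ on the gene's strand. The matrices were made on mm39, whose coordinates differ. Capitals mark the letters CTTTGA or its reverse complement TCAAAG, the core read by TCF and LEF factors.
Wnt7a, chr6:91411354-91411603, minus strand: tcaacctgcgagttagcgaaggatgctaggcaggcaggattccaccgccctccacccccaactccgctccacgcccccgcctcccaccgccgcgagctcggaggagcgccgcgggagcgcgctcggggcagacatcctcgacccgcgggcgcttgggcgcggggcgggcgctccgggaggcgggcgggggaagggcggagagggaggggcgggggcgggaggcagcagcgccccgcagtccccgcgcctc
Wnt11, first listed start, chr7:98834862-98835111, plus strand: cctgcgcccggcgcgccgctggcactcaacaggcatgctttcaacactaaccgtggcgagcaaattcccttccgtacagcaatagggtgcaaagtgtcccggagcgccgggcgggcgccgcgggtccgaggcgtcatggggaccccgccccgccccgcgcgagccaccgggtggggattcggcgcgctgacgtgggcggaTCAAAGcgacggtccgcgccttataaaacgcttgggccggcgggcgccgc
Wnt11, second listed start, chr7:98838595-98838844, plus strand: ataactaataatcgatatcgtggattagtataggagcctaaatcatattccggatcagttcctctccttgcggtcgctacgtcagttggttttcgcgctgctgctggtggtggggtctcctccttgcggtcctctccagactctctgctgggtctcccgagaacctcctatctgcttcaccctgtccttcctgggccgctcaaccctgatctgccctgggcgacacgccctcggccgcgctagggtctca
Sfrp2, chr3:83766071-83766320, plus strand: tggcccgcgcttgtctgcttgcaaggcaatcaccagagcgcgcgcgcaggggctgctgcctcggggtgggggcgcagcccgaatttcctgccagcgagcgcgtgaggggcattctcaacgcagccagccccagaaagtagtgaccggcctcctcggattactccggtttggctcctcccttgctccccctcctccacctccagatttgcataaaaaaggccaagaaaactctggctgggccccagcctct
The Wnt7a window is 77.6% G and C, and those of Wnt11 are 70.8% and 56.8%. The 6 letters occurred once among these windows, before the first Wnt11 start. On either strand they occurred in 13.8% of all 32851 windows and in 5 of the 30 windows listed for 27 of the 39 genes. A second motif searched, AGGTCA or TGACCT (a nuclear receptor half-site), occurred in 14% of all windows, in 1 of those 30 and in none of the 4 printed.

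Of the 39 genes, 26 had at least 100 UMIs over all cells, from 140 for Sfrp5 to 19640 for Dkk3. Another 12 had 1 to 42 UMIs: Wnt1, Wnt2, Wnt3, Wnt3a, Wnt8b, Wnt9b, Wnt10a, Wnt10b, Fzd9, Dkk1, Dkk4 and Wif1. Wnt8a had 0 UMIs of 91560090 in the deposited matrices. None of these 13 genes passed the filter on low counts in a class. Wnt2 had 37 distal and 0 proximal UMIs in fibroblasts, at least 1.59-fold higher in distal libraries when 3 counts are allowed over the proximal group.

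Among the ligands, the order of levels differed between classes, although fibroblasts and distal muscle had the same 2 highest ligands. The order in non-ciliated epithelium depended on the section, with Wnt16 above Wnt5a in each distal library and below it in each proximal one. In non-ciliated epithelium the highest were Wnt16, which in zebrafish acts in blood stem cell formation and in mouse in bone, at 79.9 CPM over the 6 libraries, and Wnt5a, a ligand of beta-catenin-independent signalling, at 70.4 CPM. In ciliated cells they were Wnt4 at 74.2 CPM and Wnt11 at 70.1 CPM over 5 libraries, with Wnt7b at 56.8, 55.9 and 61.7 CPM in distal libraries and 86.5 and 63.1 CPM in proximal ones. These 3 ligands of ciliated cells did not differ from one another beyond the spread between proximal libraries. In fibroblasts Wnt5a averaged 101 CPM and Wnt16 77.2 CPM. In distal smooth muscle Wnt5a averaged 103 CPM and Wnt16 33.6 CPM, and Wnt5a was above Wnt16 in all 3 libraries (131, 79.1 and 98.7 against 41.8, 31.4 and 27.6 CPM).

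**Figure D1:**
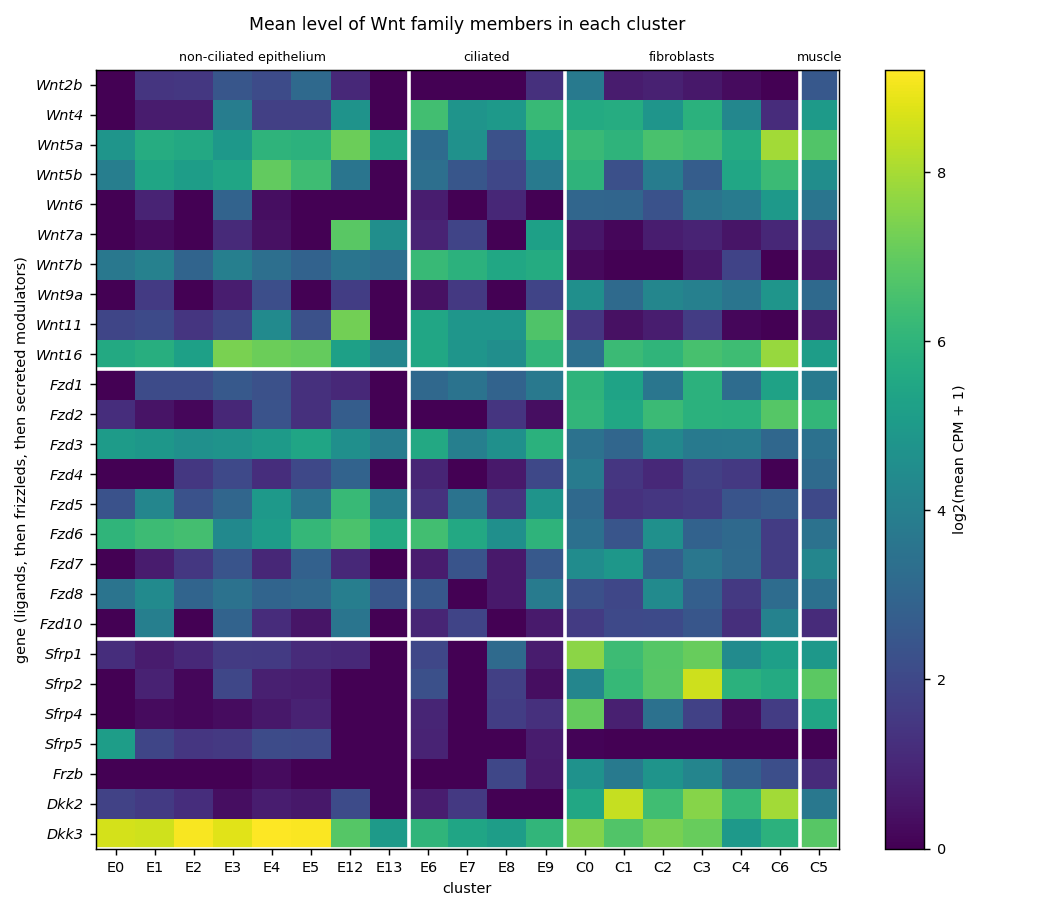
Heat map of the 26 members with at least 100 UMIs (rows: ligands, frizzleds, secreted modulators) over 19 clusters of epithelium, ciliated cells, fibroblasts and muscle (columns). Colour is log2 of the mean CPM over libraries plus 1. Dkk3 is brightest in E0 to E5, Wnt7a and Wnt11 in E12, Sfrp2 in C3, Dkk2 in C1 and Sfrp4 in C0.

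The make-up of the Wnt ligand UMIs differed between the sections in non-ciliated epithelium. Wnt16 took 46.3% ± 5.12 of them in distal and 16.9% ± 13.3 in proximal libraries (SD, n = 3 each). Wnt5b took 30.1% ± 7.29 in distal and 6.88% ± 4.62 in proximal libraries. Wnt5a took 13.9% ± 2.54 in distal and 32.0% ± 5.97 in proximal libraries. The share of Wnt11 was 1.34% ± 0.226 in distal and 19.9% ± 13.5 in proximal libraries, and that of Wnt7a 0.2% ± 0.147 in distal and 16.1% ± 11.3 in proximal ones. In ciliated cells Wnt4, Wnt7b, Wnt11 and Wnt16 each took between 18.8% and 25.4% in distal libraries. The summed ligand level was 255 ± 24.1 CPM in distal and 354 ± 196 CPM in proximal non-ciliated epithelium, and the proximal range of 127 to 473 CPM covered the distal one. These shares and sums are descriptions with no test.

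**Figure D2:**
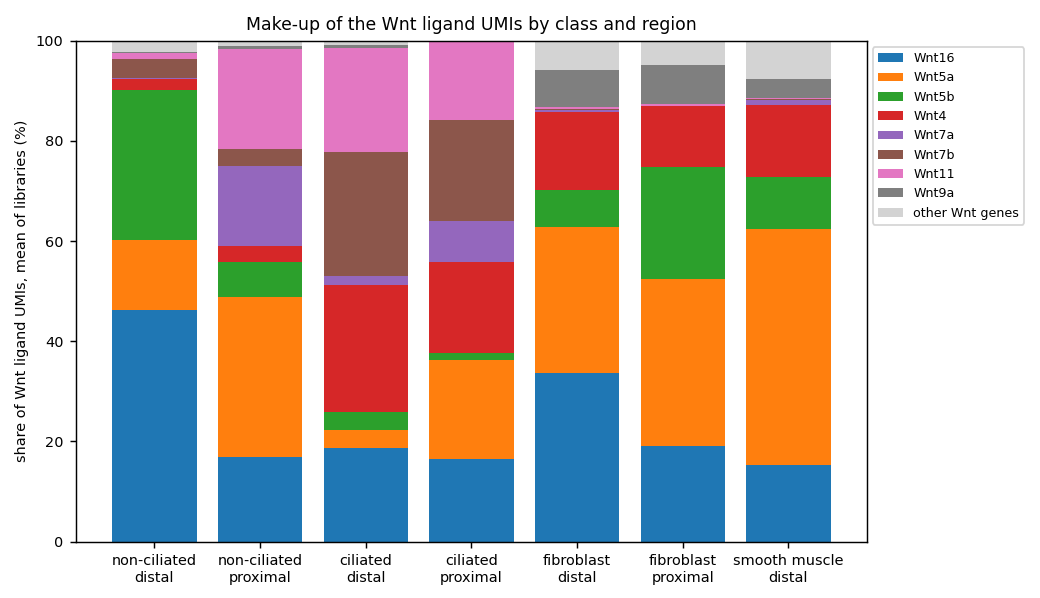
Share of all Wnt ligand UMIs taken by each ligand (percent, mean of libraries), by class and section. Distal bars stand left of proximal bars, muscle is distal only, and grey holds the ligands not named. Wnt16 and Wnt5b fill most of the distal non-ciliated bar (46.3% and 30.1%), and Wnt5a, Wnt11 and Wnt7a most of the proximal one.

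Single clusters carried much of these levels. Wnt16 stood at 164, 140 and 129 CPM in E3, E4 and E5 and between 17.9 and 54.2 CPM in the other non-ciliated clusters. It was also high in fibroblast cluster C6, at 221 CPM over 4 libraries, and low in C0, at 9.3 CPM over 6. Wnt5b was highest in E4, at 169, 119 and 161 CPM in the 3 distal libraries and at 64.9 CPM (5 UMIs) in proximal 4. Wnt7a stood at 133 and 96.7 CPM in E12 of proximal 3 and 4, and at a mean of 37.0 CPM over 4 libraries in ciliated cluster E9. Over all ciliated cells Wnt7a had 24 UMIs in distal libraries (3.94 CPM pooled) and 11 in proximal ones, all of these in proximal 4. Wnt11 followed the same clusters, at 124 and 178 CPM in E12 and at 100.2 ± 62.5 CPM (SD, n = 4) in E9. Both were under 2 CPM on average in the 6 fibroblast clusters, except Wnt11 in C3 at 2.13 CPM. Wnt4 was highest in ciliated clusters E6 and E9, at 85.0 and 73.2 CPM, and stood between 18.1 and 58.6 CPM in fibroblast clusters except C6, at 1.26 CPM.

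Frizzleds divided between epithelium and the wall. Fzd6, which acts in planar cell polarity of skin and hair, led in non-ciliated (65.9 CPM) and ciliated cells (70.0 CPM), with 7.18 CPM in fibroblasts. In ciliated cells Fzd3, a partner of Fzd6 in planar polarity, came next at 54.4 CPM, and in non-ciliated cells Fzd5 at 28.4 CPM. That place of Fzd5 rests on proximal 3 and 4: in distal libraries it averaged 8.84 CPM and Fzd3 32.3 CPM, and over all 6 libraries Fzd3 averaged 27.9 CPM. Fzd2 and Fzd1 led in fibroblasts at 67.8 and 48.5 CPM. Fzd2 also led in distal muscle at 67.3 CPM, followed by Fzd7 at 17.6 CPM. The mean of Fzd2 reached at most 5.51 CPM in an epithelial cluster, in E12. The 8 fibroblast markers stood in non-ciliated epithelium at a median of 0% to 0.616% of their fibroblast level in each library.

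The 7 secreted modulators with at least 100 UMIs were compared over non-ciliated epithelium, ciliated cells, fibroblasts and muscle. Of the 7, 4 (Sfrp1, Sfrp4, Frzb and Dkk2) had their highest mean level of these classes in fibroblasts. Dkk3 and Sfrp5 had theirs in non-ciliated epithelium and Sfrp2 in muscle. The muscle mean is of distal libraries only, and the other means are of both sections. Outside these classes, Sfrp4 stood higher in the distal granulosa or luteal cells described at the end. In distal libraries Sfrp2 averaged 119 CPM in muscle and 132 CPM in fibroblasts. Library by library, muscle stood at 74.4% to 138% of the fibroblast level for Sfrp2 and at 104% to 189% for Sfrp4. Dkk3, a dickkopf relative that does not bind Lrp5 or Lrp6 like the others, averaged 347 CPM in non-ciliated epithelium, 129 CPM in fibroblasts and 55.7 CPM in ciliated cells. Its level in ciliated cells was a median of 11.96% of that in the non-ciliated cells of the same library, and in T and NK cells 12.4%, so no expression by ciliated cells is read from it. In non-ciliated epithelium the next modulator by the mean over all 6 libraries was Wif1, at 1.16, 0.522 and 0.223 CPM in distal and 0, 8.63 and 3.19 CPM in proximal libraries, from 17 distal and 4 proximal UMIs. In distal libraries Sfrp5 was above it, at a mean of 4.25 CPM. Fibroblasts held Sfrp1 at 118 CPM and Dkk2, an Lrp6 ligand, at 117 CPM. Distal muscle held Sfrp2 at 88.0, 136 and 134 CPM and Dkk3 at 115, 89.1 and 129 CPM, which overlapped. Fibroblast markers stood in muscle at a median of 11.2% to 16.1% of their fibroblast level, and their part in the Sfrp2 value of muscle was not tested.

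Within the fibroblasts the modulators marked different clusters. Sfrp2 stood at 311, 328 and 452 CPM in C3 of the 3 distal libraries, above each of its distal values in C0 (32.1, 16.9 and 26.7 CPM). Dkk2 stood at 206, 272 and 125 CPM in C1 of the distal libraries and at 762 CPM (11 UMIs from 13 cells) in proximal 4. Sfrp4 was found almost only in C0, which held 97.2% of the distal and 99.2% of the proximal fibroblast UMIs of this gene. Sfrp1 was also highest in C0, at 196 CPM over 6 libraries. Sfrp5 was the epithelial member of the family. In cluster E0 (leading genes Dcpp1, Dcpp2 and Dcpp3) of the distal libraries it stood at 44.0, 23.1 and 33.7 CPM, from 11, 3 and 4 UMIs. Its mean was at most 3.3 CPM in the other clusters. Distal non-ciliated epithelium held 115 UMIs of Sfrp5, so most of them lay outside E0.

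Between the sections, Wnt7a and Wnt11 fell in distal relative to proximal non-ciliated epithelium, and edgeR called no member higher in distal libraries. Wnt7a had 0.866, 0.522 and 0.111 CPM in distal libraries 1, 2 and 3 and 7.00, 129 and 70.2 CPM in proximal libraries 2, 3 and 4, from 13 distal and 79 proximal UMIs. All proximal values lay above all distal values, and proximal 2 was far below proximal 3 and 4. The mean was 0.5 ± 0.378 CPM in distal and 68.9 ± 61.2 CPM in proximal libraries (SD, n = 3 each), a log2 fold change (distal over proximal) of -6.63 ± 0.91 (SE), with adjusted p = 0.00844 by edgeR's quasi-likelihood test. Wnt11, a ligand of convergent extension movements, had 4.04, 3.13 and 3.01 CPM in distal and 5.6, 121 and 137 CPM in proximal libraries. Its groups did not overlap, but proximal 2 stood close to the distal values. Its log2 fold change was -4.38 ± 0.79 (edgeR adjusted p = 0.0213). Of the 39 genes, 15 passed the filter on low counts and 2 (13.3%) passed the test, beside 3.14% of the 12719 genes tested. Wnt7a passed that filter through its proximal libraries alone, and Wnt11 would not have passed it on its distal libraries alone. Neither call is thus independent support. DESeq2 called 8 members here, beside 1474 of the 12719 genes, with Dkk3, Wnt5b and Wnt16 higher in distal libraries.

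Cluster E12 held 93.7% of the proximal Wnt7a UMIs and 92.4% of the proximal Wnt11 UMIs of non-ciliated epithelium. With E12 left out, a choice made after seeing the data, proximal 3 kept under 10 cells and was dropped too. In that fit, which called 2 of 14323 genes, Wnt7a no longer entered the test and Wnt11 had a log2 fold change of -1.69 (edgeR adjusted p = 0.375). Without any 1 of the 3 distal libraries both calls were lost, with log2 fold changes of -6.19 to -7.44 for Wnt7a and -4.31 to -4.57 for Wnt11. The Wnt11 call was also lost without proximal 3 (-4.11, edgeR adjusted p = 0.0873) and without proximal 4 (-3.60, edgeR adjusted p = 0.0713).

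**Figure D3:**
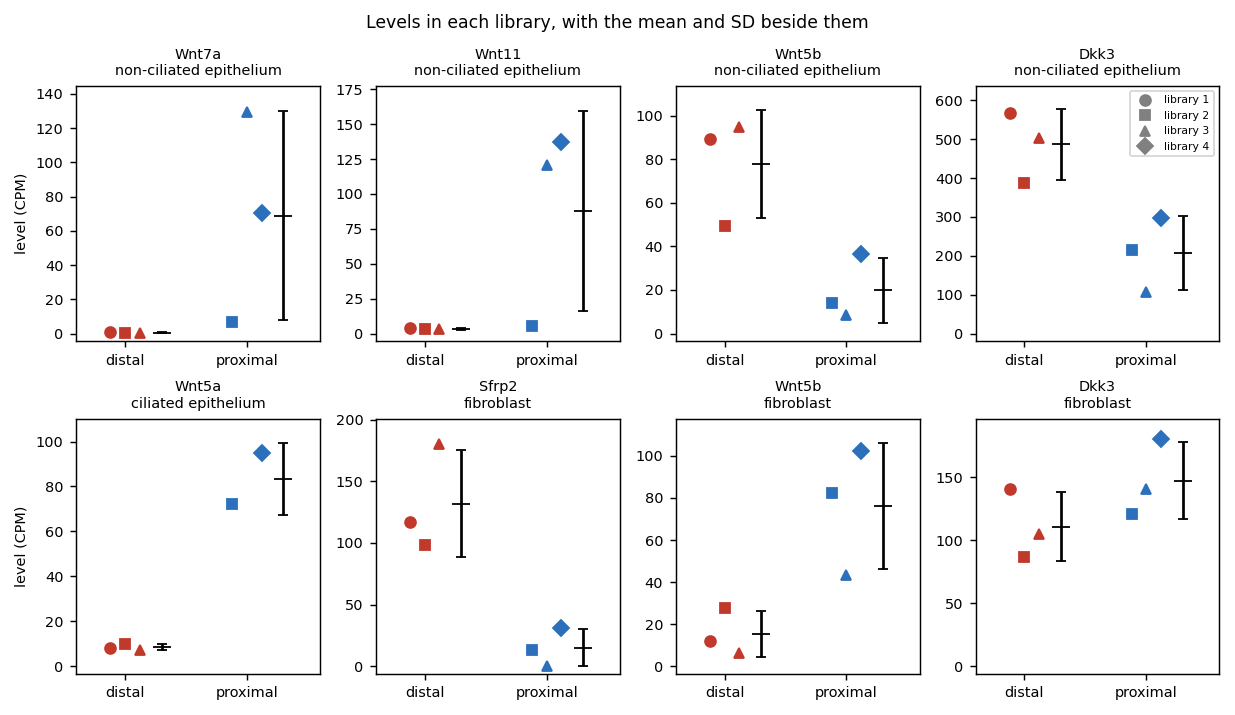
Levels in CPM of members that passed a test, 1 point per library, with distal (red) left of proximal (blue). Marker shape gives the library number in the title, and the black line and bar beside the points are the mean and SD, cut at 0. Wnt7a and Wnt11 are near 0 in distal libraries and in proximal 2 (7.00 and 5.6 CPM), whereas Wnt5b is higher in distal epithelium and lower in distal fibroblasts.

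Other members of non-ciliated epithelium did not pass. Where groups are said not to overlap, here and elsewhere, this only describes the libraries. The share of all genes tested whose groups did not overlap is not given. Wnt16 had 117, 118 and 115 CPM in distal and 40.6, 30.2 and 57.5 CPM in proximal libraries (log2 fold change 1.56 ± 0.39, edgeR adjusted p = 0.0615). Wnt5b had 89.3, 49.4 and 94.6 CPM in distal and 14.0, 8.63 and 36.7 CPM in proximal libraries (2.02 ± 0.50, edgeR adjusted p = 0.0571). Every distal value lay above every proximal value for both genes. Wnt5a went the other way, with 32.5, 38.2 and 34.0 CPM in distal and 49.0, 142 and 126 CPM in proximal libraries (-1.36 ± 0.40, edgeR adjusted p = 0.094). Fzd6 had 31.1, 49.7 and 33.3 CPM in distal and 92.4, 99.2 and 89.4 CPM in proximal libraries (-1.15 ± 0.38, edgeR adjusted p = 0.138), and here proximal 2 was with the other proximal libraries. Fzd5 had 10.9, 6.96 and 8.68 CPM in distal and 8.40, 60.4 and 75.0 CPM in proximal libraries (-2.16 ± 0.56, edgeR adjusted p = 0.0666), and proximal 2 lay among the distal values. At an unadjusted p below 0.05, 8 of the 15 tested members passed, beside 17% of all genes tested. Sfrp5 had 115 distal and 0 proximal UMIs, at least 2.4-fold higher in distal libraries when 3 counts are allowed over the proximal group.

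In ciliated cells Wnt5a fell in distal relative to proximal libraries. It had 8.23, 10.1 and 7.21 CPM in distal libraries and 72.1 and 94.7 CPM in proximal 2 and 4, so the groups did not overlap, although the proximal values rest on 5 and 9 UMIs. The mean was 8.51 ± 1.46 CPM (SD, n = 3) in distal and 83.4 ± 16.0 CPM (n = 2) in proximal libraries, with a log2 fold change of -3.17 ± 0.55 (edgeR adjusted p = 0.0088), where the median of all genes was 0.313. It was 1 of 11 members tested (9.09%), beside 3.47% of 11790 genes. The proximal cells lay in clusters E9 (30 cells of proximal 4) and E7 (21 cells of proximal 2), which held 19.7% and 10.2% of the distal ciliated cells. In E9 alone Wnt5a had 13.1, 7.02 and 10.0 CPM in distal libraries and 96.2 CPM in proximal 4. In E7 it had 0, 14.9 and 15.9 CPM in distal libraries and 67.3 CPM in proximal 2. The contrast was thus present inside both clusters, with 1 proximal library each and no test. Without distal 3 the call was lost, at -3.20 (edgeR adjusted p = 0.0521), and likewise with the description number as a block, at -3.12 (edgeR adjusted p = 0.101). The lower ciliated markers of the proximal libraries moved with it, and their part was not tested.

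The other leading ciliated members did not pass. Wnt4 had 69.7, 59.0 and 51.7 CPM in distal and 43.3 and 147 CPM in proximal libraries, and Wnt11 had 58.5, 46.6 and 41.7 CPM in distal and 14.4 and 189 CPM in proximal ones. For both, proximal 2 lay below and proximal 4 above all distal libraries. Fzd6 had 65.4, 59.0 and 72.1 CPM in distal and 101 and 52.6 CPM in proximal libraries, and Fzd3 had 42.5, 38.0 and 38.9 CPM in distal and 57.7 and 94.7 CPM in proximal ones. Dkk3 had 68.0, 34.9 and 66.5 CPM in distal and 14.4 and 94.7 CPM in proximal libraries. The edgeR adjusted p of these 5 genes ran from 0.307 for Wnt11 to 0.994 for Fzd6. Sfrp1, the second modulator here, had 17 distal and 0 proximal UMIs.

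In fibroblasts Sfrp2 rose and Wnt5b fell in distal relative to proximal libraries. Sfrp2 had 117, 98.1 and 181 CPM in distal and 13.2, 0 and 30.8 CPM in proximal libraries, and the groups did not overlap. The mean was 132 ± 43.1 CPM in distal and 14.7 ± 15.5 CPM in proximal libraries (SD, n = 3 each), with a log2 fold change of 2.94 ± 0.44 (edgeR adjusted p = 0.0106). With 0 UMIs in proximal 3, Sfrp2 passed the filter on low counts only through the distal libraries where it is high. Its call is therefore no independent support. Wnt5b had 12.2, 27.6 and 6.48 CPM in distal and 82.5, 43.4 and 102 CPM in proximal libraries, again without overlap, the 43.4 CPM of proximal 3 being 4 UMIs. Its mean was 15.4 ± 10.9 CPM in distal and 76.0 ± 30.0 CPM in proximal libraries, with a log2 fold change of -2.29 ± 0.49 (edgeR adjusted p = 0.0338). Of 21 members tested these were the 2 that passed (9.52%), beside 2.97% of 13699 genes.

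The clusters bear differently on these genes. Cluster C3 held 53.2% of the distal Sfrp2 UMIs. Without C3, chosen after seeing the data, Sfrp2 still passed with a smaller log2 fold change of 2.15 (edgeR adjusted p = 0.0393), and within C0 its values were 32.1, 16.9 and 26.7 CPM in distal and 13.8, 0 and 16.2 CPM in proximal libraries. For Wnt5b the cluster with the most UMIs was C0, which held 49.9% of its distal and 77.2% of its proximal fibroblast UMIs. Within C0 it had 20.3, 42.3 and 11.4 CPM in distal and 76.7, 115 and 109 CPM in proximal libraries without overlap (log2 fold change -1.71 ± 0.42, edgeR adjusted p = 0.0698). Without C3 the Wnt5b call was lost, at -2.11 (edgeR adjusted p = 0.0617). It was also lost without distal 1 (-2.11), distal 3 (-1.90) or proximal 3 (-2.43).

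**Figure D4:**
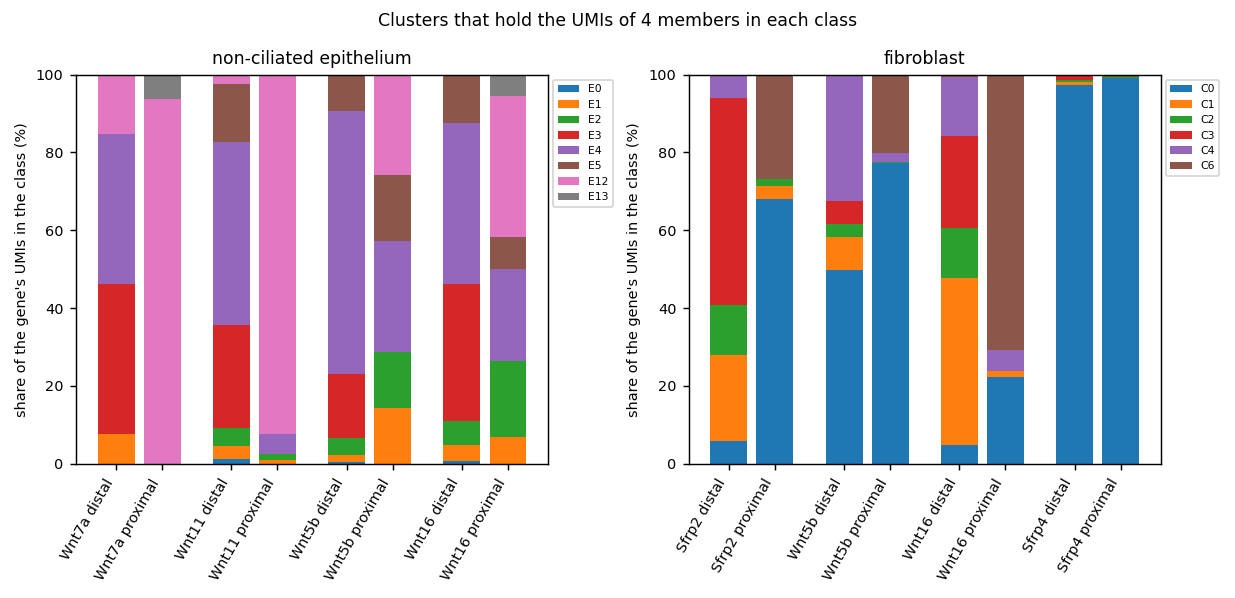
Share (percent) of the UMIs of 4 members held by each cluster, within non-ciliated epithelium (left) and fibroblasts (right), distal bars left of proximal bars. E12 holds 93.7% of proximal Wnt7a and 92.4% of proximal Wnt11, C3 holds 53.2% of distal Sfrp2, and C0 holds nearly all Sfrp4 in both sections.

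The remaining leading members of fibroblasts did not pass. Sfrp4 had 47.7, 33.6 and 19.3 CPM in distal and 111, 32.5 and 149 CPM in proximal libraries (log2 fold change -1.60 ± 0.43, edgeR adjusted p = 0.0708), and proximal 3, with 3 UMIs, lay among the distal values. Wnt5a had 73.4, 53.5 and 59.2 CPM in distal and 55.2, 217 and 150 CPM in proximal libraries (edgeR adjusted p = 0.306). Wnt16 had 78.5, 63.5 and 73.4 CPM in distal and 27.6, 152 and 68.6 CPM in proximal libraries (edgeR adjusted p = 0.646). Sfrp1 had 187, 106 and 123 CPM in distal and 72.4, 65.0 and 154 CPM in proximal libraries (edgeR adjusted p = 0.431). Fzd2 had 56.1, 44.4 and 72.6 CPM in distal and 50.2, 75.9 and 108 CPM in proximal ones (edgeR adjusted p = 0.738), and Fzd1 had 41.8, 29.3 and 29.2 CPM in distal and 25.3, 75.9 and 89.6 CPM in proximal ones (edgeR adjusted p = 0.49). The proximal values of each of these genes overlapped the distal ones.

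In smooth muscle, where no section test could be made, the distal libraries gave Fzd2 at 75.3, 54.0 and 72.7 CPM and Fzd7 at 25.1, 8.78 and 19.0 CPM. Wnt5b ran from 9.48 to 42.7 CPM, the highest value in distal 2, which also had the highest distal fibroblast value of this gene.

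Wnt5b, Wnt7a and Dkk3 had section effects that differed between non-ciliated epithelium and fibroblasts, in a fit of both classes. For Wnt5b the epithelial log2 fold change less the fibroblast one was 4.36 ± 0.67 (edgeR adjusted p = 0.00207): distal was above proximal in epithelium (77.8 ± 24.7 and 19.8 ± 14.9 CPM) and below it in fibroblasts. For Wnt7a the difference was -5.90 ± 1.08 (edgeR adjusted p = 0.00784), but fibroblasts held only 18 distal and 2 proximal UMIs of Wnt7a, a ratio of 1.16 with an exact counting interval of 0.278 to 10.3. Wnt7a entered this fit, as the one in epithelium, only through the proximal epithelial libraries where it is high, so its call adds nothing to that one. For Dkk3 it was 1.49 ± 0.36 (edgeR adjusted p = 0.0435). Dkk3 had 569, 388 and 503 CPM in distal and 216, 108 and 297 CPM in proximal non-ciliated epithelium, without overlap. In fibroblasts it had 141, 86.9 and 105 CPM in distal and 121, 141 and 181 CPM in proximal libraries, which overlapped. These 3 were among 25 members tested (12%), beside 1.78% of 15789 genes. Wnt11 (-3.02 ± 0.84, edgeR adjusted p = 0.0892) did not pass. The Dkk3 call was lost without any 1 distal library and without proximal 3 (1.28 to 1.83), and the Wnt7a call without distal 3, proximal 3 or proximal 4 (-4.98 to -5.63). The Wnt5b call held without each of the 6 libraries. Of the 11 members tested in both classes, 6 had effects of opposite sign and 5 of the same sign. Several of these effects were smaller than their SE. The share of opposite signs over all genes is not given, so nothing about the members is read from this count.

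**Figure D5:**
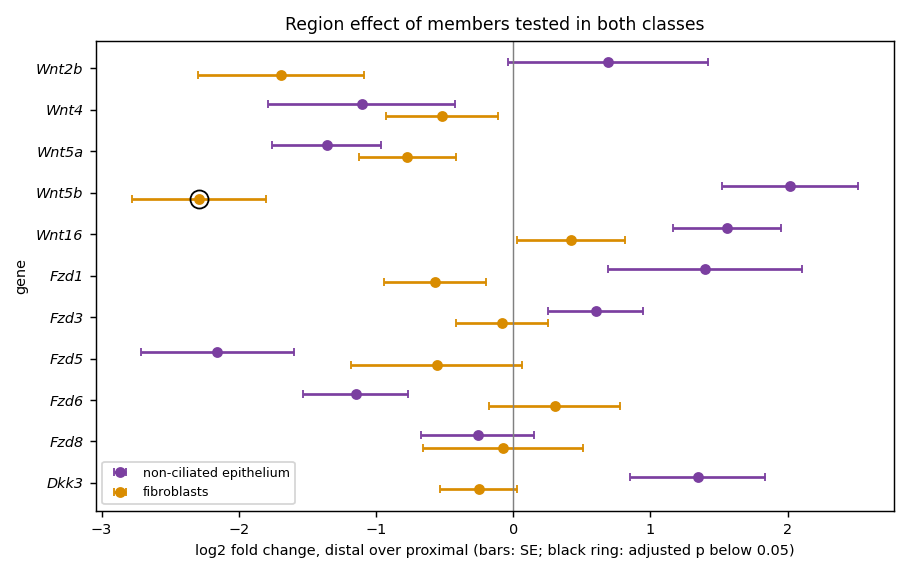
Log2 fold change, distal over proximal, of the 11 members tested in both non-ciliated epithelium (purple) and fibroblasts (orange), with bars for the SE. A black ring marks an edgeR adjusted p below 0.05, which only Wnt5b in fibroblasts has, and Wnt5b lies at 2.02 in epithelium and -2.29 in fibroblasts.

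Inside single clusters that both sections shared, no member passed edgeR's test. In fibroblast cluster C0, 0 of 18 members passed beside 0.781% of 11269 genes, and 5 had an unadjusted p below 0.05, beside 9.58%. In C2 0 of 9 passed, beside 3.24% of 7448 genes, and 3 had such an unadjusted p, beside 15.6%. In epithelial clusters E1 and E2, 0 of 5 passed in each, beside 0.258% of 5428 and 1.81% of 4743 genes, and 1 and 2 had such an unadjusted p, beside 7.2% and 9.04%. DESeq2 called 0 members in each of these clusters. The median log2 fold change of all genes was 0.69 in C2, whose proximal sums held 8069 and 22347 UMIs, and 0.168 in E1. In the 5 members of C0 with an unadjusted p below 0.05, Sfrp1 was fitted at 0.99, and Dkk2, Fzd1, Wnt4 and Wnt5b at -1.11, -1.04, -1.49 and -1.71. Dkk2 in C0 had 28.6 ± 8.6 CPM in distal and 62.1 ± 11.7 CPM in proximal libraries without overlap (edgeR adjusted p = 0.196). Fzd6 was fitted at -1.27 ± 0.57 in E1 and -1.12 ± 0.39 in E2 (edgeR adjusted p = 0.602 and 0.259), close to its value of -1.15 over all non-ciliated epithelium. The other members tested there were not all alike. The fits of E1 and E2 left out proximal 3, which held 5 and 1 of their cells, whereas the fit over the class included it. Proximal 4 gave sums of only 14668 UMIs in E1 and 24194 in E2. How far this bears on the values below was not tested. Dkk3 was fitted at 0.37 and 0.26, against 1.34 over the class, and Wnt16 at 0.43 and 0.32, against 1.56. Wnt5a was fitted at -0.54 and -1.07, against -1.36, and Fzd3 at -0.36 and 0.57, against 0.60.

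Of 62 other Wnt pathway genes, 45 were tested in non-ciliated epithelium and 3 passed (6.67%, beside 3.14% of all genes). Lgr6, a receptor of R-spondins, which enhance Wnt signals, had 729 distal and 0 proximal UMIs and was at least 15.2-fold higher in distal libraries when 3 counts are allowed over the proximal group. It passed the filter on low counts through its distal libraries alone, so its call is no independent support. The call of Prickle2 rests on 455 distal and 5 proximal UMIs. Its proximal UMIs were too few to pass that filter without the distal libraries, so its call is no independent support either. Prickle2, a planar polarity protein, rose by 2.52 ± 0.57, and Bcl9, a beta-catenin co-activator, had a log2 fold change of -1.90 ± 0.41 (edgeR adjusted p = 0.0431 and 0.0372). In ciliated cells 2 of 43 passed (4.65%, beside 3.47% of all genes), both lower in distal libraries: the Wnt inhibitor Apcdd1 (-1.99 ± 0.51, edgeR adjusted p = 0.0493) and the cyclin Ccnd1 (-2.88 ± 0.64, edgeR adjusted p = 0.0264). In fibroblasts 1 of 52 passed (1.92%, beside 2.97% of all genes), the glypican Gpc3, with 120 ± 41.7 CPM in distal and 372 ± 96.4 CPM in proximal libraries (-1.44 ± 0.32, edgeR adjusted p = 0.0402). Between the classes, the section effects of Notum, which removes the Wnt lipid, and of Bcl9 differed (-2.61 ± 0.56 and -1.80 ± 0.36, edgeR adjusted p = 0.0211 and 0.0145), 2 of 54 tested (3.7%, beside 1.78% of all genes).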

How the data were processed

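Per the labels' protocols, tissue of a section was combined over a group of mice, digested with enzymes, depleted of dead cells and made into 10x Genomics Single Cell 3′ v2 libraries. The authors deposited 1 matrix of raw UMI counts per library. Cell Ranger is version 6.1.2, with mm39, per the submitters' processing notes, but 7.0.0 per the file headers. Barcodes with at least 500 UMIs, 250 genes and at most 20% mitochondrial UMIs were kept (1447 removed), and 818 were removed as likely doublets by the Scrublet score. Cells were clustered (scanpy 1.11.5, Leiden, resolution 1), epithelium again on its own, without the 39 members and 62 other pathway genes, and classes were named from marker lists. Raw counts were summed per library and class (at least 10 cells). Sections were compared with edgeR 4.0.16 in R 4.3.3 (TMM, filterByExpr with minimum count 10 and total 15, quasi-likelihood test, Benjamini-Hochberg adjustment over all genes tested at 0.05). The SE is the fold change divided by the root of the F statistic. Intervals are exact 95% and cover counting error only.

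Members, lists and alternatives were chosen with earlier results of these data known. Given per library are members that passed a test and the 2 with the highest mean level per family and class. Other pathway genes are named where they passed. Library totals ran from 426707 to 32488145 UMIs. Title and description numbers of the libraries pair only distal 2 with proximal 2 alike, so no pairing was used. DESeq2 1.42.0 and other alternatives are given at the end. P-values measure the spread between pooled libraries.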

Additional observations from a re-analysis of the deposited data

Results flagged for a closer look

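For 3 members the section effect (log2, distal over proximal) differed between non-ciliated epithelium and fibroblasts by a test of the difference itself. The difference was 4.36 for Wnt5b, -5.90 for Wnt7a and 1.49 for Dkk3 (edgeR adjusted p = 0.00207, 0.00784 and 0.0435). For Wnt5b every distal library lay above every proximal one in epithelium and below every proximal one in fibroblasts. In epithelium Wnt5b was highest in cluster E4, which held 748 distal and 18 proximal cells. It did not enter the tests inside E1 and E2, the epithelial clusters that both sections shared. How far the cluster make-up bears on its epithelial side was not tested. For Wnt7a the fibroblast side rests on 18 distal and 2 proximal UMIs, and the gene passed the filter on low counts only through the proximal epithelial libraries where it is high, so its p is no independent support. The epithelial section effect of Dkk3 was 1.34 ± 0.49 (SE) over the class, but 0.37 ± 0.47 inside E1 and 0.26 ± 0.41 inside E2. The fits inside E1 and E2 left out proximal 3, where Dkk3 was lowest, so their libraries are not those of the class fit. How far this bears on the smaller effects was not tested.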

How the results depend on the processing

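With 3 pooled libraries a section and few proximal cells, the number of members called moved with the settings, while no named fold change turned sign in 122 gene and setting pairs (99 kept their side of the threshold, 23 were weaker). In non-ciliated epithelium 2 members were called. DESeq2 called 8 and a fit with no low-count filter 6, in each case 3 of them higher in distal libraries (Wnt5b and Wnt16 in both, with Dkk3 or Sfrp5). Distal sums thinned to the proximal depth gave 0, since Wnt7a and Wnt11 no longer passed the filter. Leaving out single libraries gave 0 to 8, with 8 without proximal 2, 0 without each distal library and 1 without proximal 3 or 4. In ciliated cells 1 was called, against 3 with no filter and 0 to 4 without single libraries (4 without proximal 2, 0 without distal 3). In the thinned ciliated sums 0 members passed the filter, so 0 calls there say nothing. In fibroblasts 2 were called and 1 to 5 without single libraries, with 5 without proximal 2. In cluster C0 0 were called and 0 to 4 without single libraries (4 without proximal 2, 3 without proximal 4, 1 without distal 2), and in C2, E1 and E2 0 under each alternative. For the difference of the section effects 3 were called and 1 to 5 without single libraries (1 without distal 3 or proximal 3, 5 without proximal 2). The cause of these changes was not tested, beyond the thinned counts. For most of these fits, and for those of the next paragraph, the share of all genes called is not given. The counts therefore describe the fits and are not read as results about the members.

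Alternatives added after seeing the data left out clusters. Without E12, or without E12 and E13, 0 members were called in non-ciliated epithelium. These fits also lost proximal 3, which kept under 10 cells, and called 2 of 14323 and 0 of 14458 genes, so they say nothing about the members. Without E4 2 were called. In fibroblasts 1 was called without C3 and 4 without C6. Pairing rests on numbers that the labels give differently. With the title number as a replicate block, non-ciliated epithelium had 3 calls, fibroblasts 3 and C0 0. With the description number as the block, non-ciliated epithelium had 4, ciliated cells 0 and fibroblasts 3. Same-titled libraries deviated together with r = 0.577 (number 2) and 0.333 (number 3) in epithelium and 0.363 and 0.121 in fibroblasts, across genes, with 2 pairs only. Distal 3 and proximal 4, paired by the description number only, gave 0.381 in epithelium and 0.0396 in fibroblasts. Libraries paired by neither number ran from -0.546 to 0.236 in epithelium and from -0.225 to 0.14 in fibroblasts. No pairing is read from these values. The title block could not be fitted in ciliated cells, and no alternative gave a value in smooth muscle.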

Other observations

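Members also marked cell classes outside the comparisons, given here as levels with no test. In granulosa or luteal cells, found in the distal libraries only (28, 18 and 14 cells), Wnt4, a ligand of ovary development, stood at 312, 315 and 506 CPM and Sfrp4 at 278, 154 and 518 CPM. In mesothelial cells, which cover the outside of the tube, Wnt4 stood at 191 and 82.2 CPM in distal 1 and 3 and at 270 CPM in proximal 4.

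Blood endothelial cells held Fzd4, a receptor of vessel growth, at 114, 144 and 153 CPM in distal libraries and at 31.6 and 86.6 CPM in proximal 3 and 4. Pericytes held Fzd4 at 51.6, 79.3 and 75.4 CPM in distal and at 133 and 33.7 CPM in proximal libraries. In lymphatic endothelial cells Fzd6 stood at 153 and 202 CPM in distal 1 and 3 and at 384 CPM in proximal 4, from 11, 16 and 8 UMIs.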
